A study of Homo sapiens with 42 samples.

Results

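Confluent HEK293 cells, a human embryonic kidney line, were separated into a cytoplasmic and a nuclear fraction, and the miRNAs of each fraction were sequenced. The libraries were chosen by their titles, and 5 of the 42 libraries of the series entered the comparison: 3 of confluent HEK293 cytoplasm and 2 of confluent HEK293 nucleus. The third nuclear library held 39 counts in all and was left out. The labels give these groups by cell line, density and fraction, with no genetic change and no treatment. The 2 fractions were set beside 6 libraries of subconfluent HEK293 cells (3 of each fraction), 6 of confluent A375 melanoma cells and 5 of confluent SHSY5Y neuroblastoma cells. A further 6 held miRNAs recovered with AGO1-4, the Argonaute proteins, from HEK293 cells by immunoprecipitation (IP). Of these, 3 were of subconfluent and 3 of confluent cells, and detection in the IP was read over both densities together. Of 2657 miRNA entries in the count table, 1769 had a count in a confluent HEK293 library and 345 were tested, those with at least 10 counts in at least 3 of the 11 HEK293 fraction libraries.

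Primary miRNA transcripts are cut to hairpins in the nucleus by the Microprocessor (Drosha with DGCR8) and, after export, to short duplexes in the cytoplasm by Dicer. A strand of the duplex is then held by an Argonaute protein and guides it to transcripts through its seed, the bases that follow its first one. Mature miRNAs are best known from the cytoplasm, but Argonaute proteins and mature miRNAs are also found in nuclei. A small RNA library measures the share of each miRNA within a fraction and not its amount, so more of an entry and less of the others cannot be told apart. In these bulk libraries fewer cells and less RNA per cell cannot be told apart either.

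The names of the libraries carry a doubt that touches nearly every result. In the study's own summary of mean profiles, the values that the deposited files give for the confluent nucleus stand under the name of the subconfluent cytoplasm, and the reverse. The names of the deposited count table and of the sample titles, which match each other, were used here. The test of the difference between the densities gives the 2 groups in doubt the same weight, so exchanging their names leaves its values unchanged. The levels given per group still depend on the names. Over the 345 tested entries, log2 CPM (counts per 1000000 after scaling by edgeR's TMM factors, a trimmed mean of ratios between libraries) of the confluent nuclear libraries correlated with those of the deposited subconfluent nucleus at r = 0.871 to 0.90, with confluent cytoplasm at 0.784 to 0.873 and with subconfluent cytoplasm at 0.634 to 0.705. These points share the entries and the base composition of each entry and are given as a description. With the 2 names exchanged, the same test called 76 entries higher and 22 lower in the confluent nucleus, where the deposited names gave 20 and 57. Of those 20 entries 11 then lay below 0 on the log2 scale, and of the 56 lower entries with separate libraries 27 lay above 0.

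The cytoplasmic libraries held 38170, 37318 and 23909 counts and the nuclear ones 15162 and 11679. At this depth 3 counts, the limit that a count of 0 allows, were 0.00786% to 0.0257% of a library, a limit that covers counting error only. Thinned to 11679 counts, the cytoplasmic libraries held 774, 750 and 782 entries and the nuclear ones 677 and 589. The 10 most abundant entries took 34.6% ± 0.484 (SD, n = 3) of the cytoplasmic counts and 45.6% ± 2.64 (SD, n = 2) of the nuclear counts, a difference of 11.1 percentage points whose two-sided exact permutation p of 0.2 is the smallest that 2 against 3 libraries can give. Thus both nuclear libraries were shallower, held fewer entries at equal depth and gave more of their counts to a few miRNAs. Whether libraries came from separate cultures is not given in the sources used here, so p-values measure the spread between libraries. Each fraction library had its own 3′ adapter, which cannot be told apart from the fraction.

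The line was checked against marker miRNAs. None of 11 blood cell, 10 mesenchymal, 11 melanocyte and 9 miR-200 family entries passed the filter. Their summed levels per 1000000 counts were 264 to 342 in nuclei and 107.2 to 376.4 in cytoplasm for blood cells, 0 to 428 and 0 to 209.6 for mesenchymal cells, and 0 to 198 and 26.2 to 83.7 for melanocytes. The miR-200 family summed to 263.8 to 513.7 per 1000000 counts in nuclei and 321.6 to 445.4 in cytoplasm. The erythroid miR-451a, the myeloid miR-223-3p, miR-143-3p of smooth muscle and miR-211-5p of melanocytes had no count in any of the 5 libraries. Other members were counted. The blood cell entry miR-486-5p had 10, 3 and 4 counts in cytoplasm and 3 and 4 in nuclei. For miR-200c-3p these were 12, 8 and 9 in cytoplasm and 4 and 4 in nuclei. The mesenchymal miR-145-5p had 2 counts in cytoplasm 1 and 3 in nucleus 2. Of 8 kidney entries 2 passed, miR-192-5p and miR-194-5p, and neither was called. Both arms of the endothelial miR-126 and 5 of 15 neural entries also passed, with no call. The count table holds miRNA entries alone, so the purity of the fractions could not be checked on other nuclear or cytoplasmic RNAs.

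The sequences of the entries on which the comparison turned were taken from RefSeq (GRCh38.p14), which gave a mature sequence for 312 of the 345 tested entries. They are written 5′ to 3′ with the seed, bases 2 to 8, in capitals. The first set is shown because several of its members were among the most abundant miRNAs of the nuclei and because they share 3 seeds. AAAGUGC is that of miR-17-5p and the next 3 lines, AUUGCAC that of the miR-92 and miR-25 lines, and GUGCAAA that of miR-19.
miR-17-5p: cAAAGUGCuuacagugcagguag
miR-20a-5p: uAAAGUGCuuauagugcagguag
miR-93-5p: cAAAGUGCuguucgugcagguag
miR-106b-5p: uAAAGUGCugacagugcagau
miR-92a-3p: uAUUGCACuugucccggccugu
miR-92b-3p: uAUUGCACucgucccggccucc
miR-25-3p: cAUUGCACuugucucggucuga
miR-19a-3p: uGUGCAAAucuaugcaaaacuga
miR-19b-3p: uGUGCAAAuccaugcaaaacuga

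The second set holds further entries that were higher in nuclei, among them the identical sequences of miR-365a-3p and miR-365b-3p and both arms of the miR-423 hairpin.
miR-1246: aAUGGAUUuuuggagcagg
miR-1306-5p: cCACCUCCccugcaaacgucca
miR-320b: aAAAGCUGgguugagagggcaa
miR-139-3p: uGGAGACGcggcccuguuggagu
miR-365a-3p: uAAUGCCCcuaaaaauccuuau
miR-365b-3p: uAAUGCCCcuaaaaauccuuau
miR-99b-5p: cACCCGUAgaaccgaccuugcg
miR-423-5p: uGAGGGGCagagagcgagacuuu
miR-423-3p: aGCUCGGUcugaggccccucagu

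The third set holds entries that were lower in nuclei, most of them rich in G and C, with the near-identical pair miR-1260a and miR-1260b last.
miR-3186-5p: cAGGCGUCugucuacguggcuu
miR-1237-5p: cGGGGGCGgggccgaagcgcg
miR-6769a-3p: gAGCCCCUcucugcucuccag
miR-6126: gUGAAGGCccggcggaga
miR-4687-3p: uGGCUGUUggagggggcaggc
miR-7704: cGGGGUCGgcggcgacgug
miR-4634: cGGCGCGAccggcccgggg
miR-6836-5p: cGCAGGGCccuggcgcaggcau
miR-6836-3p: aUGCCUCCcccggccccgcag
miR-4485-3p: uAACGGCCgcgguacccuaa
miR-663a: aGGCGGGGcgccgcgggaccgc
miR-1260a: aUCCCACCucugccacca
miR-1260b: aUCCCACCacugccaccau

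The question put to the fractions was which miRNAs took a larger or smaller share in the nucleus than in the cytoplasm of confluent cells. The entries higher in nuclei were mostly detected in the AGO1-4 IP and included members of miR-17~92 and related clusters, miR-320, miR-365, miR-423 and miR-99b-5p. Lower entries were mostly GC-rich and not detected in the IP. By edgeR's quasi-likelihood test with Benjamini-Hochberg adjustment at 0.05, 20 entries (5.8% of 345) were higher and 57 (16.5%) lower in nuclei, 77 in all (22.3%). All 20 higher and 56 of the 57 lower entries had libraries that did not overlap between the fractions, against 21.2% of all tested entries with both nuclear libraries above the cytoplasm and 35.4% with both below. Scaled by library totals in place of TMM factors, the test called 11 higher and 75 lower, and DESeq2 called 27 and 45. The median log2 fold change over all entries was -0.19 with TMM factors, -0.46 with library totals and -0.08 with DESeq2. The counts also rested on single nuclear libraries: 4 higher and 27 lower were called without nucleus 2, and 19 and 35 without nucleus 1. Of the 20 higher entries, 3 were called without nucleus 2 (miR-1306-5p, miR-320a-3p and miR-339-5p) and 13 without nucleus 1, and of the 57 lower ones 27 and 31. Without cytoplasm 3, 12 were called higher, all of them among the 20.

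**Figure D1:**
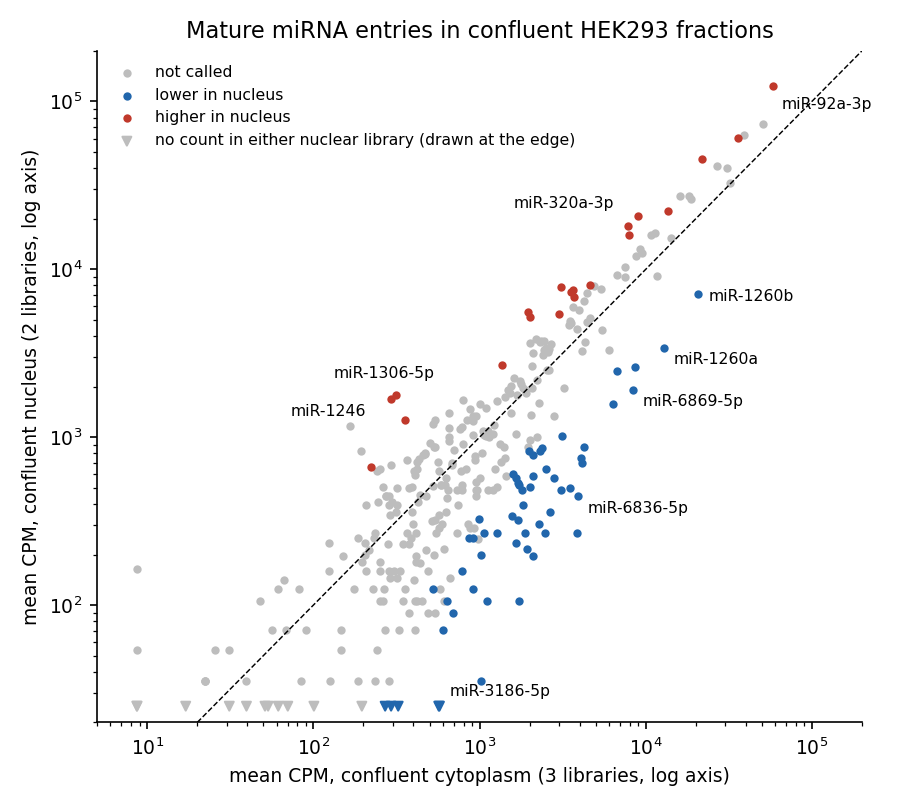
Mean CPM of each tested entry in confluent HEK293 cytoplasm (x, 3 libraries) and nucleus (y, 2 libraries), both on log axes, with the 20 entries higher and the 57 lower in nuclei coloured. Entries with no nuclear count lie as triangles at the lower edge, and miR-886, with no confluent count, is not drawn.

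The miR-17~92 cluster, known as an oncogenic miRNA cluster of dividing cells, lies in exons of MIR17HG (hairpins at chr13:91350605-91351391, plus strand, GRCh38.p14), and its paralog MIR106B-93-25 lies within MCM7 (chr7:100093560-100094074, minus strand). Of 28 entries of these clusters and the X-linked paralogs 16 were tested, 4 rose, none fell, and the median log2 fold change was 0.51 against -0.19 over all entries tested. miR-92a-3p, the most abundant entry of all 5 libraries, stood at 59237, 52832 and 63171 CPM in cytoplasm and at 103929 and 142163 in nuclei. Both nuclear libraries lay above all cytoplasmic ones, and the log2 fold change was 1.07 ± 0.23 (SE, edgeR adjusted p = 0.00193). miR-106b-5p stood at 7282, 9005 and 7217 CPM in cytoplasm and at 10768 and 25650 in nuclei, with a log2 fold change of 1.20 ± 0.30 (edgeR adjusted p = 0.00502). Its nuclear libraries did not overlap with the cytoplasm but differed from each other more than the cytoplasmic ones did. miR-93-5p stood at 20465, 22668 and 21818 CPM in cytoplasm and at 33084 and 58039 in nuclei (log2 fold change 1.07, edgeR adjusted p = 0.00463). miR-17-5p stood at 32142, 37919 and 36916 CPM in cytoplasm and at 51079 and 69451 in nuclei (0.76, edgeR adjusted p = 0.0287). miR-92b-3p, which shares the seed of miR-92a-3p but lies apart on chromosome 1, stood at 3616, 3383 and 3609 CPM in cytoplasm and at 6801 and 7825 in nuclei (1.04, edgeR adjusted p = 0.0106). The libraries of all 3 were separated by fraction. Without nucleus 2 none of the 16 was called, with an edgeR adjusted p of 0.056 for miR-92a-3p, and with library totals 3 rose and 1 fell with a median of 0.22.

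**Figure D2:**
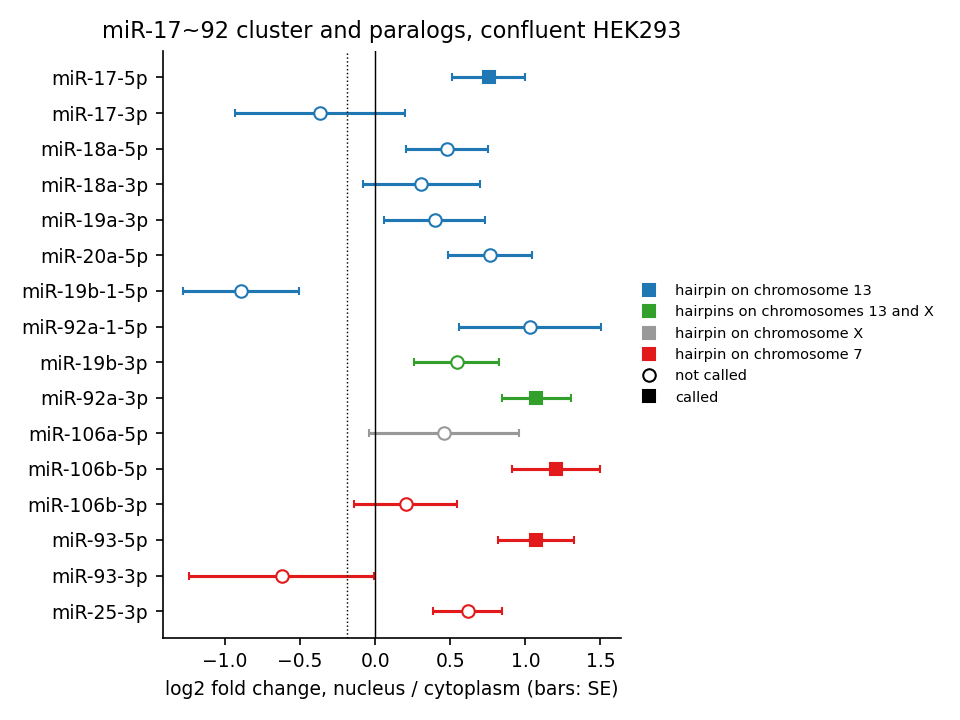
Log2 fold change (nucleus against cytoplasm, confluent HEK293) of the 16 tested members of miR-17~92 and its paralogs, with the standard error as bars and filled squares for the 4 called entries. The dotted line is the median of all tested entries, -0.19, and 13 of the 16 members lie above 0.

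The other members of these clusters were not called. miR-19b-3p stood at 46355, 49344 and 56162 CPM in cytoplasm and at 71695 and 75646 in nuclei, separated but with an edgeR adjusted p of 0.175. miR-20a-5p (15870, 15824 and 16260 against 20758 and 33802 CPM) reached 0.0534 by the same test. The passenger arm miR-19b-1-5p had a log2 fold change of -0.89. Summed by seed, the 5 tested entries with AAAGUGC took 8.15% of the cytoplasmic and 15.2% of the nuclear CPM, and 3 of them rose. The 4 with AUUGCAC came to 90954 and 173668 CPM, with 2 higher, and the 2 with GUGCAAA to 81248 and 113987, with none called. Reads of miR-17-5p and miR-106a-5p, which differ little in sequence, and of miR-92a-3p, miR-19b-3p and miR-16-5p, which have more than 1 locus, could not be assigned to a locus.

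The 10 entries with the highest mean CPM in nuclei were miR-92a-3p, miR-19b-3p, miR-10a-5p, miR-17-5p, miR-93-5p, miR-25-3p, miR-19a-3p, miR-16-5p, miR-10b-5p and miR-20a-5p, and in cytoplasm miR-1260b and miR-18a-5p stood in place of the last pair. miR-16-5p, known for its part in the cell cycle and apoptosis, was among the abundant miRNAs whose share differed little. It stood at 32368, 36956 and 27085 CPM in cytoplasm and at 33155 and 32497 in nuclei, so that the fractions overlapped, with a log2 fold change of 0.03. miR-10a-5p, encoded in the HOXB cluster, stood at 42061, 33703 and 41934 CPM in cytoplasm and at 52496 and 73472 in nuclei, separated but not called (0.68, edgeR adjusted p = 0.0534).

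miR-1306-5p, whose mature sequence lies in an exon of DGCR8 (chr22:20086072-20086093, plus strand), stood at 402, 338 and 207 CPM in cytoplasm and at 1275 and 2282 in nuclei. Its log2 fold change of 2.399 ± 0.45 (edgeR adjusted p = 0.000547) rested on 34 counts in cytoplasm and 39 in nuclei. miR-320a-3p, whose hairpin is known to be made without the Microprocessor, stood at 8563, 8614 and 9830 CPM in cytoplasm and at 17499 and 23911 in nuclei (1.20 ± 0.23, edgeR adjusted p = 0.000713). Among the 20 higher entries, these 2 alone were called under every other setting tried except the exchange of names. miR-320b, which differs little from miR-320a-3p, stood at 352, 338 and 373.3 CPM in cytoplasm and at 567 and 1956 in nuclei (1.74 ± 0.50, edgeR adjusted p = 0.016), and without nucleus 2 its adjusted p was 0.54. Of 5 tested entries listed as made without the Microprocessor 2 rose, both of miR-320, and 1 fell, the mirtron miR-1228-5p, with a median of 0.52.

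miR-1246 showed the largest log2 fold change of the higher entries. It stood at 276, 182.2 and 415 CPM in cytoplasm and at 1842 and 1522 in nuclei, and the log2 fold change was 2.58 ± 0.73 (edgeR adjusted p = 0.0137). Its sequence, annotated at chr2:176601024-176601042 on the minus strand outside any host gene, also lies without mismatch in genes of U2, a small nuclear RNA of the spliceosome, RNU2-1 among them. miR-1290, which matches U2 with 1 mismatch, stood at 151, 260.3 and 166 CPM in cytoplasm and at 779 and 869 in nuclei, separated but not called (2.05 ± 0.77, edgeR adjusted p = 0.0599). Neither was detected among the AGO1-4 IP libraries by the rule of at least 10 counts in at least 3 of 6. Whether these reads came from miRNA hairpins or from U2 was not tested. The call for miR-1246 was lost without nucleus 1 (edgeR adjusted p = 0.13) and without nucleus 2 (0.089).

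miR-365a-3p and miR-365b-3p have the same mature sequence and their reads are split between the 2 names. miR-365b-3p stood at 1808, 1978 and 2074 CPM in cytoplasm and at 3755 and 7391 in nuclei (1.49 ± 0.32, edgeR adjusted p = 0.00188), and miR-365a-3p stood at 1682, 1952 and 2406 against 3471 and 6956 (1.36 ± 0.33, edgeR adjusted p = 0.00488). The fractions were separated for both names. miR-193b-3p, whose hairpin neighbours that of miR-365a (chr16:14303967-14309371, plus strand), also rose (0.85 ± 0.29). miR-99b-5p stood at 2938, 2707 and 3650 CPM in cytoplasm and at 7651 and 7934 in nuclei (1.33 ± 0.37, edgeR adjusted p = 0.0116), and its cluster neighbours let-7e-5p (0.51) and miR-125a-5p (0.44) were not called. Both nuclear libraries of miR-99b-5p lay close together and above all of the cytoplasm. miR-139-3p, from an intron of PDE2A, stood at 276, 182.2 and 207 CPM in cytoplasm and at 779 and 543.4 in nuclei (1.58 ± 0.50, edgeR adjusted p = 0.0254), on 23 and 16 counts. Without nucleus 2 the calls of these 4 named entries, miR-365b-3p, miR-365a-3p, miR-99b-5p and miR-139-3p, were lost, without nucleus 1 those of miR-99b-5p and miR-139-3p, and without cytoplasm 3 that of miR-139-3p. The remaining higher entries were miR-361-5p (1.03), miR-324-3p (1.01), miR-423-5p (1.00), miR-197-3p (0.87), miR-339-5p (0.80) and miR-423-3p (0.72).

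**Figure D3:**
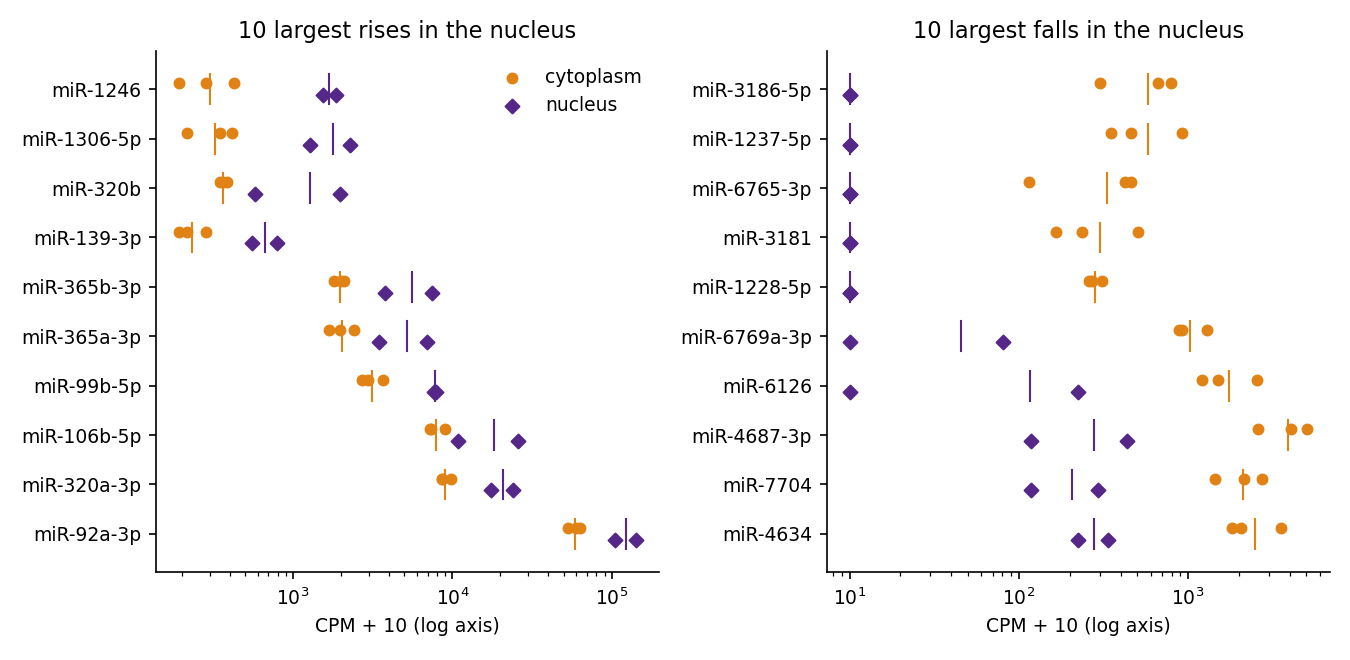
CPM plus 10, on a log axis, of the named entries in each confluent HEK293 library, with a dot per library and a vertical line at the mean of each fraction. The nuclear dots of miR-1246 (1842 and 1522 CPM) lie right of all its cytoplasmic dots, and those of miR-3186-5p lie at 0 CPM.

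Of the 57 lower entries, 5 had no count in either nuclear library, and their folds are lower bounds set against 3 counts over the 2 nuclear libraries. miR-3186-5p stood at 778, 651 and 290.0 CPM in the cytoplasmic libraries and was at least 4.79-fold lower in nuclei (edgeR adjusted p = 0.00209). miR-1237-5p stood at 452, 338 and 913 CPM and was at least 4.03-fold lower (edgeR adjusted p = 0.00502). Both were thus present in all 3 cytoplasmic libraries at 7 to 31 counts and in no nuclear one. miR-6765-3p (at least 2.43-fold lower), miR-1228-5p (2.13) and miR-3181 (2.05) had 4 to 18 counts per cytoplasmic library. The calls of miR-1237-5p, miR-6765-3p, miR-1228-5p and miR-3181, but not that of miR-3186-5p, were lost without either nuclear library.

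Other lower entries kept a few nuclear counts. miR-6769a-3p stood at 879, 1275 and 913 CPM in cytoplasm and at 70.8 and 0 in nuclei, 24.2-fold lower on 1 nuclear count (95% exact interval 4.24 to 963). miR-6126 stood at 1482, 1197.2 and 2530 CPM in cytoplasm and at 213 and 0 in nuclei, 12.6-fold lower on 3 nuclear counts (4.24 to 61.8). The intervals cover counting error only. miR-4687-3p, in an exon of STIM1 (chr11:3856113-3856133, plus strand), stood at 2561, 4060 and 5019 CPM in cytoplasm and at 425 and 109 in nuclei (log2 fold change -3.69 ± 0.63, edgeR adjusted p = 0.000547). miR-7704, in an exon of HOXD1 (chr2:176188843-176188861, plus strand), stood at 2134, 1431 and 2738 CPM against 283 and 109 (-3.27 ± 0.56, the same adjusted p). miR-4634 stood at 1808, 2056 and 3526 CPM against 213 and 326 (-3.21 ± 0.60, the same adjusted p). All 5 were separated between the fractions, and all but miR-6769a-3p were still called without either nuclear library.

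The most abundant lower entries were miR-1260b and miR-1260a, which share the seed UCCCACC and differ in few bases, so that the split of reads between them is uncertain. miR-1260b stood at 18507, 21419 and 21900 CPM in cytoplasm and at 7864 and 6304 in nuclei (-1.53 ± 0.28, edgeR adjusted p = 0.000547). miR-1260a stood at 10923, 13976 and 13480 CPM against 4109 and 2717 (-1.88 ± 0.31, edgeR adjusted p = 0.000533). The mean CPM of the pair summed to 33402 in cytoplasm and 10497 in nuclei. They belong to the 8 lower entries that were detected in the IP, with miR-491-3p (-2.88), miR-940 (-2.31), miR-6820-3p (-2.28), miR-4286 (-1.89), miR-424-5p (-1.61) and miR-1180-5p (-1.59). Scaled by library totals, the confluent IP held a mean of 9380 CPM of miR-424-5p and of the others 8.75 (miR-4286) to 284 (miR-1260b). The median over all tested entries detected in the IP was 1323, so detection by this rule does not mean a high level there. miR-424-5p, of the miR-15/16 family, was the lower entry whose libraries overlapped (2386, 3461 and 1120 CPM against 354 and 1304). Among the lower entries not detected in the IP, the most abundant were miR-6805-3p (8211, 9343 and 8337 against 2621 and 2608 CPM), miR-6869-5p (6956, 6897 and 11158 against 1984 and 1848) and miR-10400-5p (6830, 5648 and 7632 against 2267 and 2717).

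Families were described by their counts beside the 5.8% higher and 16.5% lower of all entries. No member was called of 6 tested let-7 entries (median 0.44), 8 of the miR-30 family (0.32), 7 from the HOX clusters (0.33), 5 from the miR-23/27/24 clusters (0.05), 3 of the miR-183 cluster (-0.33), 6 of the miR-130 family (-0.37) and 3 of miR-29 (-0.48). miR-29b-3p carries at its 3′ end AGUGUU, known from human cells as a nuclear import element, and was the only one of 312 tested mature sequences with these letters (0.321%).
miR-29b-3p: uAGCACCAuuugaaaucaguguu

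It stood at 1858, 2603 and 1369 CPM in cytoplasm and at 992 and 761 in nuclei, a log2 fold change of -1.13 ± 0.78 that was not called (edgeR adjusted p = 0.308). In the subconfluent libraries its level ran from 1551 to 1860 CPM in cytoplasm and from 645 to 8421 in nuclei. The motif was searched on the mature strand alone, and nothing is drawn from its absence elsewhere. GGAG, known from human cells as a motif of miRNAs secreted from the cell, lay in 38 of 312 sequences (12.2%). Of these 3 were higher and 6 lower.

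Some miRBase entries lie within other RNAs. With up to 1 mismatch on the sense strand, 13 tested entries matched ribosomal RNA, of which none rose and 5 fell: miR-663a (-1.32), miR-4466 (-2.16), miR-10396b-3p (-2.14), miR-7704 and the mitochondrial 16S match miR-4485-3p. miR-4485-3p stood at 578, 625 and 871 CPM in cytoplasm and at 70.8 and 109 in nuclei, 7.75-fold lower on 2 nuclear counts (95% exact interval 2.06 to 65.3). The calls of miR-663a, miR-4466, miR-10396b-3p and miR-4485-3p were lost without nucleus 1 and also without nucleus 2. The median log2 fold change of the 13 was -1.32, and that of the 2 matches to small nuclear RNA 2.31. A list by name of entries inside small nucleolar, small nuclear, ribosomal, transfer, vault or mitochondrial RNA had 8 tested entries. Of these 1 rose, miR-1246, and 5 fell, with a median of -1.43. The lower ones were miR-663a and miR-4485-3p from above, and miR-1260a, miR-1260b and miR-6724-5p, for which the search found no such match. The search compared full mature sequences with genes as they stand in the genome. It could therefore miss matches that include bases added after transcription, as at the ends of transfer RNAs. The part of such RNAs in the counts was not tested.

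Detection in the IP moved with the direction of the change. Of the 20 higher entries 18 (90.0%) were detected among the AGO1-4 IP libraries, of the 57 lower ones 8 (14.04%), and of all 345 tested 56.2%. The detected entries had a median log2 fold change of 0.37 with 18 higher and 8 lower, and the 151 others one of -1.47 with 2 higher (miR-1246 and miR-139-3p) and 49 lower. With entries absent from the nuclei set at their bound, the second median was -1.21. Entries not detected in the IP took 20.3% ± 2.58 (SD, n = 3) of cytoplasmic and 7.16% ± 2.09 (SD, n = 2) of nuclear counts, a difference of -13.1 percentage points with a two-sided exact permutation p of 0.2, the smallest possible here. Every nuclear library (5.68% and 8.63%) lay below every cytoplasmic one (18.02% to 23.1%). The titles of the IP libraries name a total lysate, and the study's account of its miRNA sequencing names whole cell lysates. Its methods describe the IP input as a cytoplasmic fraction, so the compartment of the Argonaute proteins recovered is uncertain. Nuclei were the shallower libraries, and the part of depth in these shares was not tested. The filter asked for at least 10 counts in at least 3 libraries, so the 2 confluent nuclear libraries alone could not pass an entry. Of the tested entries 112 had 10 or more counts in both of them, and the rest passed with counts in other libraries. The part of the filter in these medians and counts was not tested.

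Base composition moved with both. Lower entries had a median GC content of 76.9%, higher entries of 56.5%, and entries not called of 52.2%. Below 70% GC the median log2 fold change was 0.25, with 18 higher and 17 lower of 225 entries, and at 70% or more it was -1.63, with 1 higher and 35 lower of 87. With library totals the former median was -0.02, so that its sign rests on the scaling. Of the 45 entries with at least 80% GC, 23 fell, none rose and 4.44% were detected in the IP, while of the 40 under 40% GC 1 fell, 2 rose and 85.0% were detected. Across the 312 entries with a sequence, log2 fold change and GC content had a Pearson r of -0.45 (Spearman rho -0.45). Within the 176 IP-detected entries r was -0.09 (rho 0.05), and within the others -0.29 (rho -0.26). The entries share libraries, scaling, the filter and the depth at which low counts were read, and are not replicates.

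**Figure D4:**
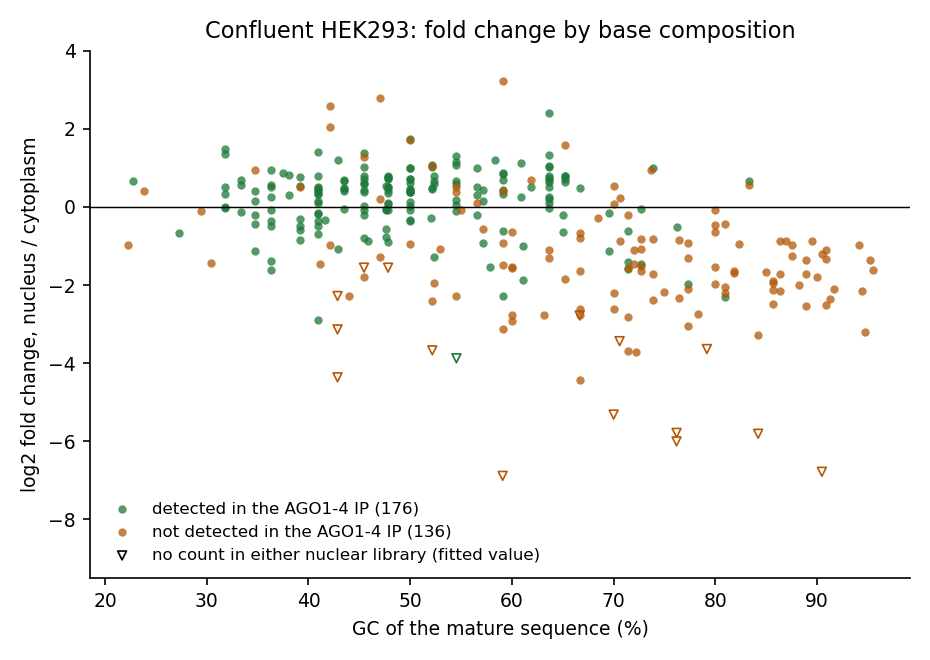
Log2 fold change (nucleus against cytoplasm, confluent HEK293) against the GC content in percent of each mature sequence, for 176 entries detected in the IP and the rest not detected. Open triangles mark entries with no nuclear count, whose fitted value is no measured fold, and the entries detected in the IP thin out above 70% GC.

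The first base of the mature sequence was also counted. Of 19 higher entries with a sequence 10 began with U, 5 with C, 4 with A and none with G. Of 52 lower entries 11 began with U, 18 with C, 9 with A and 14 with G, and of all 312 entries 40.1% began with U and 12.8% with G. These counts share the base composition given above and carry no test.

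The 2 arms of a hairpin could be compared for 36 hairpins. In 27 of them the more abundant arm had the higher log2 fold change, with medians of 0.55 for the more and -0.22 for the less abundant arms, and in 21 both arms had the same sign. Both arms were called in 3 hairpins. Those of miR-423, in an exon of NSRP1 (chr17:30117079-30117172, plus strand), both rose. miR-423-5p stood at 6956, 7782 and 9084 CPM in cytoplasm and at 11477 and 20433 in nuclei (1.00 ± 0.27, edgeR adjusted p = 0.00973), and miR-423-3p at 14765, 13403 and 12402 against 20474 and 24020 (0.72 ± 0.23, edgeR adjusted p = 0.0254). Both arms of miR-6836 (-3.05 and -2.20) and of miR-10400 (-1.43 and -1.82) fell. miR-6836-5p stood at 4043, 2941 and 4687 CPM in cytoplasm and at 567 and 326 in nuclei.

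The same contrast in subconfluent HEK293 cells, fitted together with the confluent libraries and sharing none with them, called 67 entries higher (19.4% of 345) and 120 lower (34.8%) in nuclei. Of the 20 entries higher in confluent nuclei 16 (80%) were also higher in subconfluent nuclei, which is 23.9% of the subconfluent list, and 1, miR-139-3p, was lower. Of the 57 lower entries 42 (73.7%) were also lower, 35% of the subconfluent list, and none was higher. Across the 345 entries the log2 fold changes of the 2 densities had an r of 0.49. The difference between the densities was called for 14 entries (4.06%), 8 with the higher and 6 with the lower nuclear share in confluent cells. With the names exchanged the subconfluent contrast called 4 higher and none lower (edgeR, adjusted), so these overlaps rest on the deposited names.

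miR-139-3p had a log2 difference between the densities of 4.21 ± 0.61 (edgeR adjusted p = 0.000329). Its level in subconfluent cells ran from 4393 to 7110 CPM in cytoplasm and from 799 to 1210 in nuclei, so that the subconfluent cytoplasm lay far above the other 3 groups. The same held for miR-6790-3p, with 14083 to 15319 CPM in subconfluent cytoplasm, 1119 to 1936 in subconfluent nuclei, 578, 494.5 and 1244 in confluent cytoplasm and 708 and 543.4 in confluent nuclei (difference 2.995 ± 0.62, edgeR adjusted p = 0.0125). miR-27a-3p went the other way, with 1055, 2498 and 788 CPM in confluent cytoplasm, 638 and 543.4 in confluent nuclei, 754 to 950.0 in subconfluent cytoplasm and 1921 to 4211 in subconfluent nuclei (-3.18 ± 0.67, edgeR adjusted p = 0.0125). In confluent cells its fractions were separated but not called (-1.29 ± 0.55, edgeR adjusted p = 0.0909). miR-6836-5p fell in confluent nuclei and stood at 1465 to 1852 CPM in subconfluent cytoplasm against 746 to 1371 in subconfluent nuclei (difference -2.29 ± 0.57, edgeR adjusted p = 0.0308). For 7 of the 8 entries with a positive difference, miR-139-3p excepted, the confluent contrast itself was not called. Without confluent nucleus 1 the calls of all 4 differences were lost, with 1 entry higher and 0 lower still called in all, and without confluent nucleus 2 those of miR-27a-3p and miR-6836-5p. The difference of miR-1246, 2.77, was not called (edgeR adjusted p = 0.0982).

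**Figure D5:**
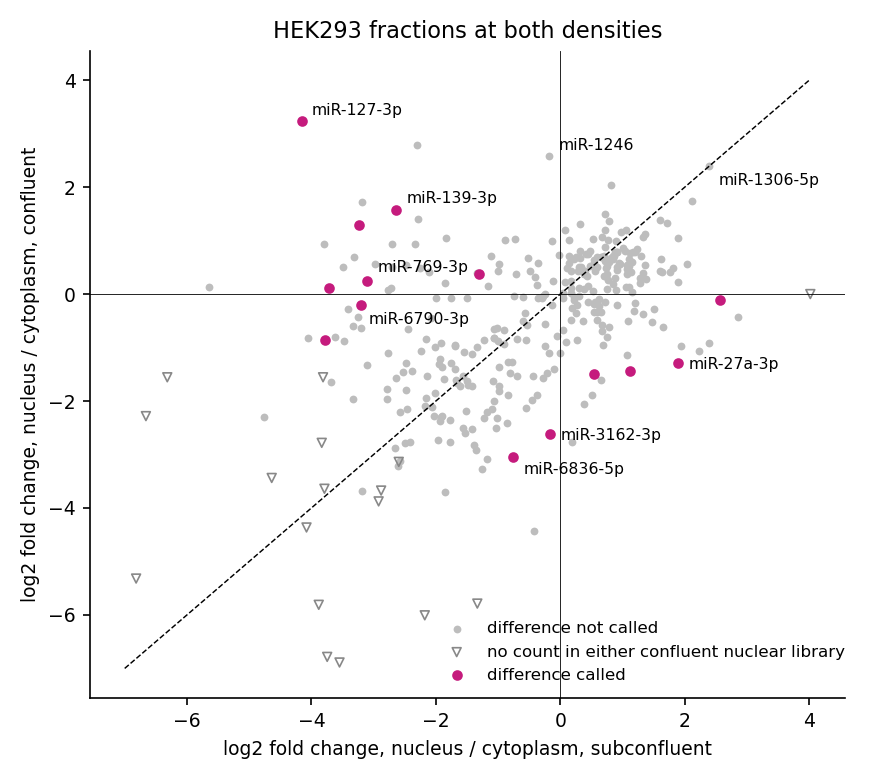
Log2 fold change (nucleus against cytoplasm) of the 345 tested entries in subconfluent (x) and confluent (y) HEK293 cells. The 14 entries whose difference was called are marked. miR-139-3p lies at -2.63 (x) and 1.58 (y), the only entry called in opposite directions.

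The confluent fractions of A375 and SHSY5Y were compared with those of HEK293 in a separate fit of 16 libraries and 380 entries, with its own scaling, which called 13 entries higher and 54 lower for HEK293 nuclei. The change differed between HEK293 and A375 for 58 entries (15.3% of 380), 57 with the lower value in HEK293, and between HEK293 and SHSY5Y for 1 (0.263%), where 63 had an unadjusted p under 0.05 and RLE size factors (those of DESeq2, used in edgeR) and DESeq2 called 1 each. Of the 57 entries 55 were not detected in the IP, and the 58 had a median GC content of 79.1%. Entries not detected in the IP had a median log2 fold change of -1.53 for HEK293, 0.46 for A375 and -1.36 for SHSY5Y. The medians of detected entries were 0.22, -0.31 and 0.83 in the same order. The IP was of HEK293 cells alone, so entries not detected in it include some that are scarce in HEK293 but not in another line. An example is let-7a-2-3p, with a mean of 8.59 CPM in HEK293 cytoplasm and 1220 in A375 cytoplasm. With RLE factors, 20 differences from A375 were higher and 44 lower in HEK293, and DESeq2 gave 20 and 35, so the balance of the 2 directions rests on the scaling.

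miR-663a stood at 1438 to 1631 CPM in HEK293 cytoplasm and 345 to 800.3 in HEK293 nuclei, and at 558 to 722 in A375 cytoplasm and 3286 to 9267 in A375 nuclei. The difference of the log2 fold changes was -4.60 ± 0.66 (edgeR adjusted p = 1.1e-05), and the fractions were separated in opposite order in the 2 lines. miR-6724-5p stood at 3086 to 4783 CPM in HEK293 cytoplasm and 345 to 1091 in HEK293 nuclei, and at 6471 to 7865 and 12074 to 22799 in A375 (-3.53 ± 0.52, edgeR adjusted p = 1.7e-05). miR-10400-5p, higher in A375 nuclei (1.21), was lower in both HEK293 (-1.53) and SHSY5Y nuclei (-1.72). The entry that differed between HEK293 and SHSY5Y was miR-619-5p, at 129 to 288 CPM in HEK293 cytoplasm and 86.3 to 218 in HEK293 nuclei, and at 165 to 263 and 2471 to 4211 in SHSY5Y (difference -4.38 ± 0.92, edgeR adjusted p = 0.0152). That call was lost without HEK293 cytoplasm 2, HEK293 nucleus 2 or SHSY5Y nucleus 1 and with RLE factors or DESeq2, and without A375 nucleus 1 34 of the differences from A375 were called lower in place of 57.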

How the data were processed

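Cells were fractionated in a hypotonic detergent buffer, RNA was extracted with TRIzol, and small RNA libraries with a 3′ adapter per library were sequenced. The authors trimmed adapters with cutadapt, mapped reads with Bowtie2 to human miRNAs (hg38), and deposited counts per miRNA entry from bedtools; the versions and settings of Bowtie2 and bedtools are not given in the sources used here. Counts were taken as deposited, with 38170, 37318, 23909, 15162 and 11679 per confluent HEK293 library. Groups follow the sample titles. The 11 HEK293 fraction libraries were fitted together in edgeR 4.0.16 (R 4.3.3, limma 3.58.1) by quasi-likelihood with TMM factors, 1 coefficient per group and Benjamini-Hochberg adjustment at 0.05 over 345 entries. The edgeR fit was checked on simulated counts. CPM used TMM-scaled totals. Named entries were the 10 largest changes in each direction with at least 100 CPM and no overlap, the 10 most abundant per fraction, up to 5 per test of a difference, and list members. Members and lists were chosen with earlier results of these data known. Entries on mature names were matched to RefSeq GRCh38.p14 (2367 of 2657), which is the assembly of hg38. Alternatives were library totals, RLE factors, DESeq2 1.42.0, other count filters, other library sets, left-out replicates, a replicate block and exchanged names.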

Additional observations from a re-analysis of the deposited data

Results flagged for a closer look

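The nucleus minus cytoplasm change on the log2 scale differed between confluent and subconfluent HEK293 cells, by the edgeR test of the difference itself, for 14 entries. It was higher in confluent cells for miR-139-3p (4.21), miR-6790-3p (2.995), miR-769-3p (3.36), miR-127-3p (7.39), miR-483-3p (3.83), miR-132-3p (1.69), miR-494-3p (4.52) and miR-4707-5p (2.93). It was lower for miR-27a-3p (-3.18), miR-3162-3p (-2.45), miR-6836-5p (-2.29), miR-3123 (-2.66), miR-4668-5p (-2.56) and miR-5100 (-2.03). miR-127-3p rested on 1 confluent nuclear library (0, 26.03 and 0 CPM in confluent cytoplasm, 0 and 326 in confluent nuclei), and without nucleus 2 its difference was 2.55. miR-494-3p likewise stood at 213 and 0 CPM in confluent nuclei and 41.5 to 52.1 in confluent cytoplasm.

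Between HEK293 and A375 the change differed, by the same kind of test, for miR-663a (-4.60), miR-6789-5p (-4.57), miR-1469 (-3.91), miR-6724-5p (-3.53) and miR-10400-5p (-2.74), the 5 with the lowest adjusted p. All 5 had HEK293 nuclei below HEK293 cytoplasm and A375 nuclei above A375 cytoplasm. Between HEK293 and SHSY5Y it differed for miR-619-5p (-4.38).

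The third confluent nuclear library, left out of the comparisons, held 39 counts over 27 entries, with miR-19b-3p first at 10.3% of them.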

How the results depend on the processing

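The counts of 20 higher and 57 lower entries depended on the scaling, the filter and single libraries. With library totals 11 entries were higher, with no filter on low counts 9, with the filter raised to 5 libraries 34, within the IP-detected entries alone 3 higher and 10 lower, and with the names exchanged 76 and 22. Leaving out each library in turn gave 4 to 29 higher and 27 to 63 lower, with both lowest counts without confluent nucleus 2. Of the 20 higher entries 2 and of the 56 separated lower entries 25 were called under every alternative but the exchange of names. Of the 20 higher entries, all but miR-1306-5p, miR-320a-3p and miR-339-5p lost their call without nucleus 2, and without cytoplasm 3 those of miR-139-3p, miR-17-5p, miR-193b-3p, miR-197-3p, miR-324-3p, miR-339-5p, miR-361-5p and miR-423-3p were lost. The differences in the share of the 10 most abundant entries and of entries not detected in the IP kept their sign without any 1 library, from 9.21 to 12.9 and from -14.6 to -11.6 percentage points.

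For the difference between the densities (8 higher, 6 lower), the IP-detected entries alone gave 3 and 1, the filter of 5 libraries gave 2 lower, and confluent nucleus 3 kept gave 10 lower. Leaving out libraries gave 1 to 10 higher and 0 to 14 lower, with both lowest counts without confluent nucleus 1, where the difference of miR-494-3p was -0.24 (up to 5.26 without others). For HEK293 against A375 (1 higher, 57 lower), library totals gave 0 higher, RLE factors 20, DESeq2 20 higher and 35 lower, the filter of 5 libraries 0 higher, and left-out libraries 0 to 3 higher and 34 to 66 lower, the fewest without A375 nucleus 1. For HEK293 against SHSY5Y (0 higher, 1 lower), RLE factors and DESeq2 gave 1 higher and 0 lower each, library totals 12 lower, the filter of 5 libraries 1 higher and 7 lower, and left-out libraries 0 to 1 higher and 0 to 7 lower. A library that leaves a group with 1 sample makes the fit assume that this sample varies like the other groups.

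The deviations of same-numbered confluent libraries from their group means correlated at 0.05 and 0.05 over 345 entries. With 2 nuclear libraries these deviations mirror each other, so the values cannot tell whether replicate numbers pair the fractions. In subconfluent cells they were 0.03 to 0.10 for same-numbered libraries and -0.08 to 0.02 for the others. With the replicate block the confluent contrast called 17 higher and 52 lower, and the difference between the densities 13 higher and 14 lower.

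With the names exchanged, 11 higher entries turned negative on the log2 scale: miR-106b-5p (-0.35), miR-1306-5p (-0.034), miR-17-5p (-0.17), miR-339-5p (-0.10), miR-361-5p (-0.36), miR-423-3p (-0.065), miR-423-5p (-0.011), miR-92a-3p (-0.30), miR-92b-3p (-0.51), miR-93-5p (-0.36), miR-99b-5p (-0.14). 27 lower entries turned positive: miR-10396b-3p (0.82), miR-10400-5p (1.28), miR-1180-5p (1.57), miR-1228-5p (0.24), miR-1908-3p (0.46), miR-1915-3p (1.76), miR-3181 (0.64), miR-3186-5p (0.64), miR-3191-3p (0.54), miR-3195 (0.67), miR-4449 (2.92), miR-4485-3p (0.75), miR-4687-3p (1.04), miR-4741 (1.08), miR-4787-5p (0.54), miR-4800-3p (1.17), miR-5787 (0.19), miR-6075 (0.10), miR-638 (2.30), miR-663a (1.11), miR-6765-3p (0.87), miR-6793-5p (0.65), miR-6805-3p (0.0059), miR-6820-3p (0.0090), miR-6836-3p (0.12), miR-6869-5p (0.19), miR-718 (1.76). The cause was not tested.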
